A study of Mus musculus with 3 samples.

Results

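RXRα ChIP-seq was compared with input chromatin in the liver of wild type C57BL/6 male mice labelled 3 Month in age. The RXRα library was made from sonicated, fixed liver chromatin precipitated with an antibody to RXRα, and the input library from chromatin used as the background. There was 1 library of each kind and no replicate, the number of mice behind each library was not given in the sources used here, and no allele, diet or agent was named for either group. Of the 3 samples in the series, these 2 were analysed here. The question was where in the liver genome RXRα signal stood above input, and next to which genes.

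RXRα is a nuclear receptor that binds DNA mostly as one member of a pair. Its partners include PPARα, LXR, FXR, PXR, CAR, RAR, the thyroid hormone receptors and VDR, which sense fatty acids, oxysterols, bile acids, drugs, retinoic acid, thyroid hormone and vitamin D. The pair reads paired copies of a hexamer related to AGGTCA, and the order and spacing of the copies favour particular partners: a direct repeat with a spacer of 1 base (DR1) for PPARα, DR4 for LXR, CAR, PXR and the thyroid hormone receptors, DR2 and DR5 for RAR, and an inverted repeat with 1 base between the copies (IR1) for FXR.

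An RXRα region was a run of enriched 32 bp bins. After the means of both tracks had been made equal, enrichment asked for an RXRα signal of at least 20 times the larger of the bin's own input and the mean input of 0.603, and enriched bins within 200 bp were joined. In all, 179136 of 82965995 bins (0.216%) were enriched and formed 42117 regions. The regions covered 6.41 Mb, or 0.241% of the genome, and held 16.5% of all RXRα signal but 0.419% of that of input. The rule chose bins by this same contrast, so these shares describe the selection. With the tracks exchanged the same rule gave 41 regions, 0.0973% of the RXRα number. Since each group had 1 library, no test of RXRα against input was possible, and every interval given is a 95% interval that covers counting error only.

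The following sequences show what lay under the strongest regions, under the strongest with a DR1, IR1, DR4 or DR5, and under regions with a repeat at the target genes Cyp26a1 and Slc27a5. Each sequence is the plus strand of NCBI37/mm9 around the bin of highest RXRα signal. Capitals mark the hexamer repeats, or the single hexamer where there was no repeat.

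Ptgds, strongest region, chr2:25328232-25328312: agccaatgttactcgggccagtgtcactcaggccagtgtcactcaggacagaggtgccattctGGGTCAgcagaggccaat
Zfhx2, strongest in the 10 to 100 kb class, chr14:55698536-55698616: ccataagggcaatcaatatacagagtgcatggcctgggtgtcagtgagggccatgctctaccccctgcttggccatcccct
Irf2bp2, among the 5 strongest, chr8:129258824-129258904: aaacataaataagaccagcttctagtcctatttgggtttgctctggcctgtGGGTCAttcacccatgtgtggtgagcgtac
Arid1b, most reads, chr17:4626312-4626392: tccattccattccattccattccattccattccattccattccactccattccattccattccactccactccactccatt
Gne, IR1, chr4:44117224-44117304: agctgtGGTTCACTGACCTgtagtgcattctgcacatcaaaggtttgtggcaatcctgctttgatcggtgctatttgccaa
Apol7c, IR1, chr15:77370184-77370264: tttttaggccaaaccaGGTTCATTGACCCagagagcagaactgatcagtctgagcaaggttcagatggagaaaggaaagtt
Myom1, DR1 and IR1, chr17:71439560-71439640: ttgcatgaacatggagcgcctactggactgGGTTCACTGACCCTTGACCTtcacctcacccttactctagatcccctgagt
1500035N22Rik, DR1, chr5:24436840-24436920: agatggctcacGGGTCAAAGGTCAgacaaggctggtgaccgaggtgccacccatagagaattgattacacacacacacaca
Thrsp, DR4, chr7:104572392-104572472: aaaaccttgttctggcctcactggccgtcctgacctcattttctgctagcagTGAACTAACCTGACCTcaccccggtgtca
Slc7a14, DR4, chr3:31293000-31293080: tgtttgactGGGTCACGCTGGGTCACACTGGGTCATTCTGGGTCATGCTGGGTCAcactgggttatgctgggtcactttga
Mfsd1, DR5, chr3:67355304-67355384: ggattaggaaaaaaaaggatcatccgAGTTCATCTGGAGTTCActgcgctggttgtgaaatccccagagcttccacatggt
Klf9, DR5, chr19:23131464-23131544: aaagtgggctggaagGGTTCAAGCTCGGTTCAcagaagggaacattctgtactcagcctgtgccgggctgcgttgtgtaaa
Cyp26a1, DR5, chr19:37770376-37770456: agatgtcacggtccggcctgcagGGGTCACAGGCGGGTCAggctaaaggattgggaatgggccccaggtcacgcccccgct
Slc27a5, DR1, chr7:13584424-13584504: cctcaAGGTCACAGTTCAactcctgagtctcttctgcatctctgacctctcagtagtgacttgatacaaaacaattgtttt

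The Ptgds and Irf2bp2 summits held a single hexamer in these 81 bases, the Zfhx2 and Arid1b summits held none, and the Gne, Apol7c and Myom1 summits held complete inverted repeats. In Slc7a14 the DR4 recurred 4 times in a run of spaced GGGTCA copies.

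The regions were short and mostly moderate in height. The median width was 128 bp, with quartiles of 64 and 192 bp, and 8568 regions (20.3%) were a single bin. The widest spanned 1440 bp at chr4:96288737-96290176, at -31187 bp from the start of Cyp2j9, a cytochrome P450 gene, and reached 129.4 times input. The ratio of RXRα over input at the highest bin chose the regions, so its values are a description. Its median was 34.8 (quartiles 26.5 and 54), 2613 regions (6.2%) reached 100 or more, and the maximum was 765.0.

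The regions closest to the threshold rested on few reads. In a bin without input, 13 RXRα reads were needed, against 21 reads over 1 input read and 41 over 2. At the bin of highest ratio the input was 0 in 66.7% of regions, 1 in 26.9% and 2 or more in 6.4%. Just inside the threshold, 750 regions had a ratio of 20 to 21. A ratio of 20 to 22, which takes in bins of 13 RXRα reads without input, was found at 3956 regions. Just outside it, 15628 runs of bins peaked at a ratio of 15 to 20, with a median of 18.3, and 3720 of them were less than 0.5 short of the threshold, which includes bins with 20 RXRα reads over 1 input read that the scaling factor of 0.999912 put just under the threshold.

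A few loci carried extreme signal in both libraries and gave no region. The 2487 bins with an input of 100 or more, which included the whole mitochondrial chromosome and bins near 16 gene starts, took 9.25% of input reads and 1.3% of RXRα reads, and 0 regions contained one. They were left out of the signal shares by distance class and gene part, of the reads per Mb and of the profile around gene starts. This choice was made after seeing the data. The shares of signal inside regions and of reads on the mitochondrial chromosome kept them.

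RXRα regions were spread over every chromosome except the mitochondrial one, with a lower density on X and Y. Across the 19 autosomes there were 17.3 regions per Mb, from 13.4 (12.8 to 14) on chromosome 3 to 26 (24.7 to 27.4) on chromosome 19. Chromosome 11 followed with 23.5 (22.6 to 24.4) and chromosome 4 with 20.1 (19.4 to 20.8). Chromosome 4 and chromosome 5, at 19 (18.3 to 19.7), had intervals that overlapped. The density of regions went with that of gene starts over the 19 autosomes, with a Pearson r of 0.66 and a Spearman rho of 0.77, given as a description because the points come from the same pair of libraries.

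**Figure D1:**
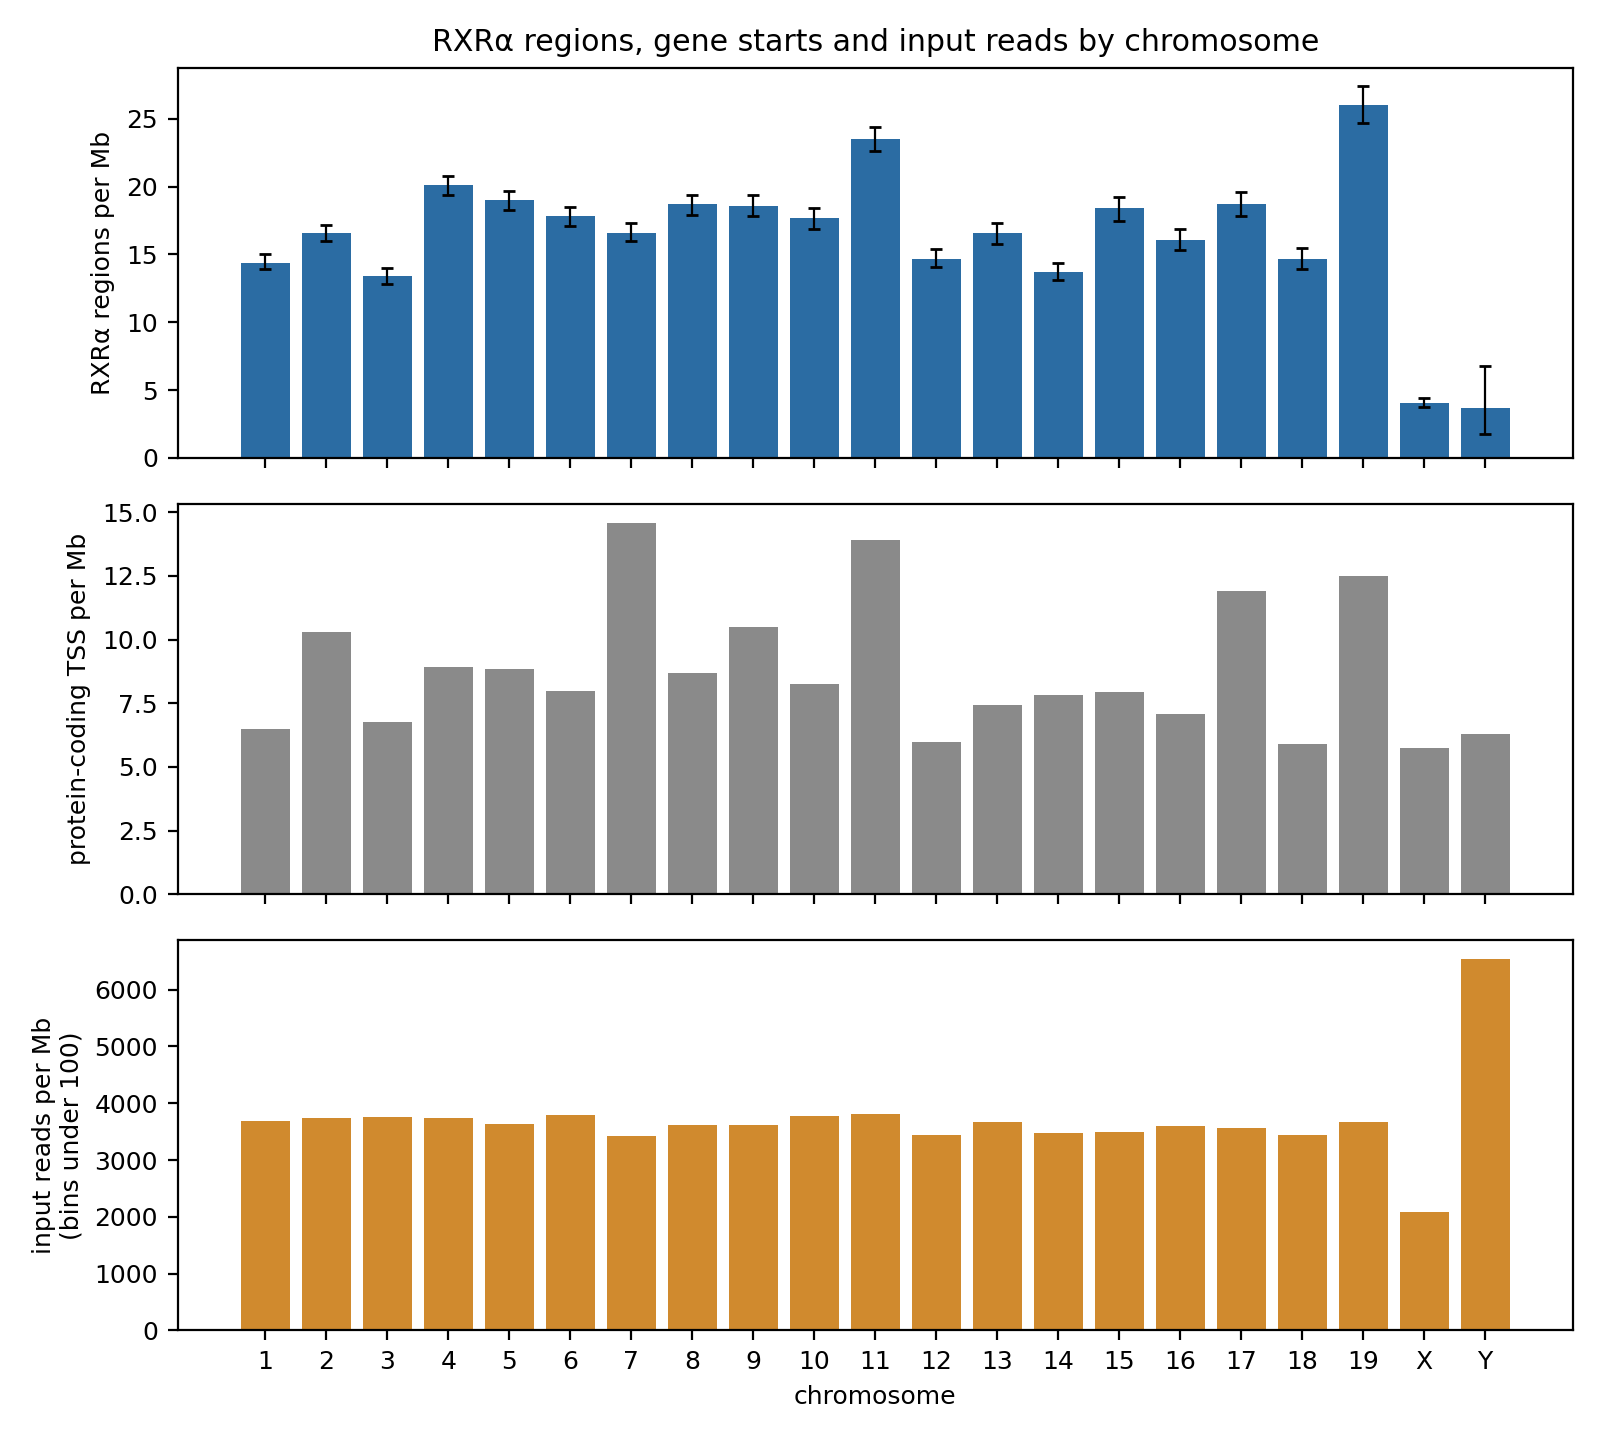
RXRα regions per Mb with exact Poisson 95% intervals (top), protein-coding TSS per Mb (middle) and input reads per Mb in bins with an input under 100 (bottom), by chromosome. Chromosome 19 had 26 regions per Mb and X had 4.07, while X also had the lowest input of the chromosomes drawn, at 2091.3 reads per Mb.

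Chromosome X carried 660 regions, or 4.07 per Mb (3.77 to 4.39), which was 0.235 of the autosomal density. On X, the input reads per Mb were 0.574 of the autosomal level, the RXRα reads 0.437 and the gene starts 0.643. A male has a single copy of X, while the threshold used the mean input of the whole genome. When each chromosome was given its own mean input as the floor, an alternative added after seeing the data, X needed 7 reads instead of 13 in a bin without input and gave 1518 regions, or 9.36 per Mb, against 18.3 per Mb on the autosomes. The X density was then 0.511 of the autosomal one. The cause of the lower density on X was not tested. Chromosome Y had 10 regions, or 3.7 per Mb (1.77 to 6.8).

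RXRα regions were concentrated around gene starts, but most lay far from them. The nearest transcription start site (TSS) among 22367 protein-coding genes was within 1 kb for 5293 regions (12.6%, 12.3 to 12.9), from 1 to 10 kb for 9801 (23.3%), from 10 to 100 kb for 20757 (49.3%) and beyond 100 kb for 6266 (14.9%). The same classes made up 1.65%, 12.9%, 43.8% and 41.6% of the genome. Regions were therefore 7.61 times as frequent within 1 kb of a TSS as the share of sequence there, and 0.357 times as frequent beyond 100 kb. Against the share of input signal, which was 2.62% within 1 kb, the excess there was 4.8 times. The median distance was 19457 bp, and the farthest region was 2250418 bp from Cdh20, a cadherin gene, at chr1:104414593-104414784, with a ratio of 53.1.

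Within 10 kb of a TSS there were 15094 regions (35.8%), of which 7044 lay upstream and 8050 downstream. Within 1 kb, 2873 lay upstream and 2420 downstream. The mean RXRα signal over 22350 gene starts peaked 64 bp upstream of the TSS at 6.62 per bin, 6.55 times its level of 1.01 beyond 4 kb. Input at the same position was 1.21, or 1.82 times its own level of 0.665. Both tracks rose at gene starts, and RXRα rose more.

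**Figure D2:**
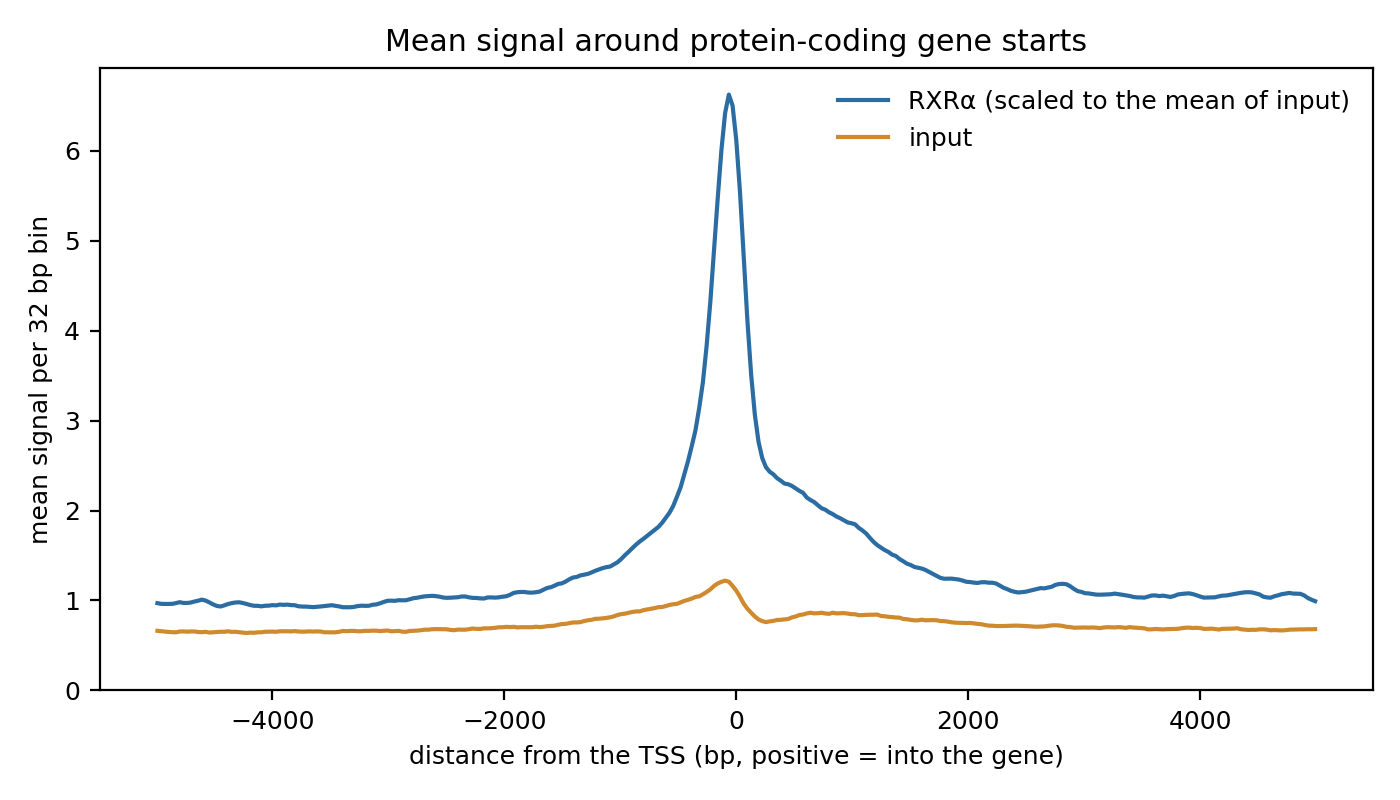
Mean signal per 32 bp bin of RXRα, scaled to the mean of input, and of input, by distance from 22350 protein-coding TSS, with positive distances running into the gene. RXRα peaked at 6.62 at -64 bp while input reached at most 1.22, and the 16 TSS with an input of 100 or more within 5 kb were left out.

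By gene part, introns and the space outside protein-coding genes held nearly all regions. The region midpoint was in an intron for 19908 regions (47.3%, against 36.1% of the genome) and outside genes for 19383 (46%, against 61.2%). The 5′ UTR held 1337 regions (3.17%), 12 times its share of the genome and 7.86 times its share of the input signal. Coding exons held 865 regions (2.05%) and 3′ UTRs 624 (1.48%), which were 1.52 and 1.47 times their shares of the genome. Where annotations overlapped, the order of preference was 5′ UTR, coding exon, 3′ UTR and intron.

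**Figure D3:**
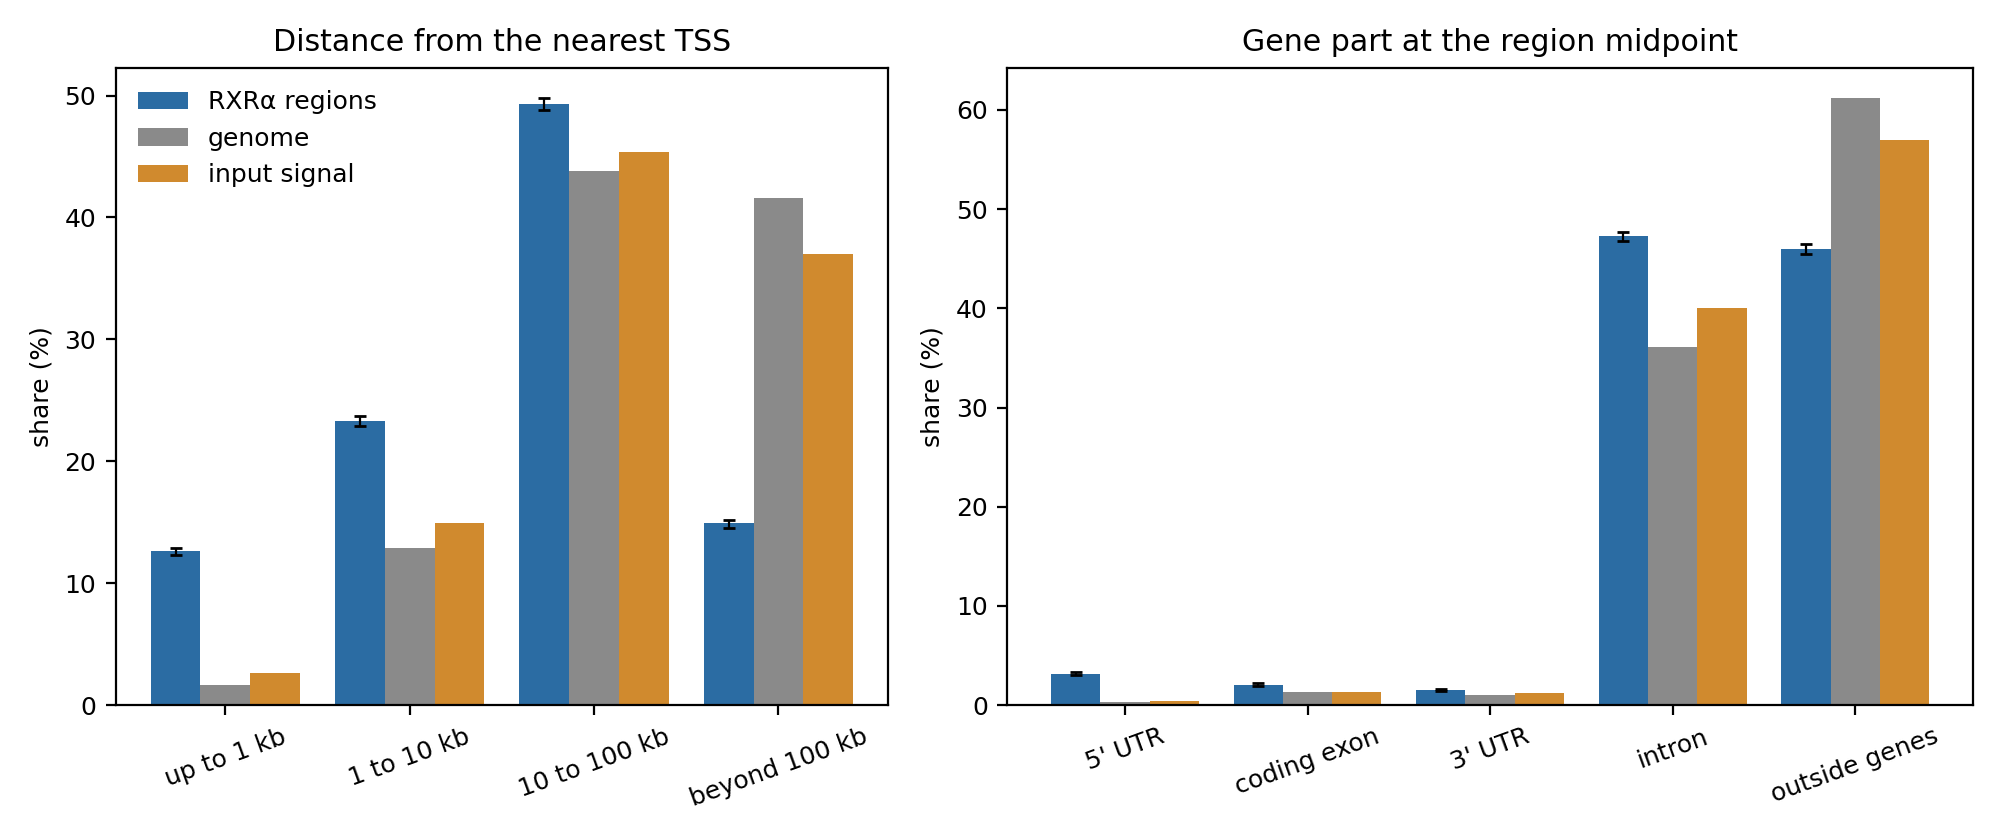
Share in percent of RXRα regions (with Wilson 95% intervals), of the genome and of input signal in each distance class (left) and gene part (right). Regions within 1 kb of a TSS made up 12.6% against 1.65% of the genome, and those beyond 100 kb 14.9% against 41.6%.

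Regions at gene starts were more numerous for their sequence but lower. The median ratio was 31.5 within 1 kb of a TSS and 35, 36 and 36 in the classes farther out, and a ratio of 60 or more was reached by 13.7% within 1 kb against 20.9%, 21.5% and 20.3%. Among the highest 1% of regions by ratio, 5.94% were within 1 kb of a TSS, 53.9% lay 10 to 100 kb away, and 52% were outside genes. The 5′ UTR had the lowest median ratio of the gene parts, at 29.9.

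The strongest region lay 2690 bp upstream of Ptgds, which encodes a prostaglandin D synthase, at chr2:25328033-25328480. Its highest ratio was 765.0 (696.7 to 838.1), from a bin with 461 RXRα reads and 0 input reads, where the mean input was the divisor. Another bin of the region had the highest RXRα signal, 589. The region as a whole held 1012.2 RXRα reads and 14 input reads. The next region was 344304 bp downstream of the start of Prr16 on chromosome 18, with a ratio of 466.3 (413.3 to 524.1). An intronic region nearest to Zfhx2, a zinc finger homeobox gene, had a ratio of 391.6 (343.2 to 444.9). The ranking and the intervals rest on a single bin per region, in these regions one without input, and not on the input of the whole region. These intervals cover the counting error of the RXRα count alone and take the background, the bin's input or the mean input, as fixed. On that basis the Ptgds interval did not overlap that of the second region. The intervals of the third to the tenth all overlapped.

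The remaining members of the 10 strongest lay near genes of varied function. An intronic region 32108 bp from the start of Mettl14, a subunit of the RNA adenosine methyltransferase complex, reached 383.3. A region 141448 bp upstream of Irf2bp2, a transcriptional corepressor, reached 381.7. Regions far upstream of Arid1b, a chromatin remodelling subunit, and of Dio3, the deiodinase that inactivates thyroid hormone, reached 368.4 and 366.7. All of these lay more than 10 kb from the start of the gene that names them.

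A coding exon region 13145 bp downstream of the start of Sqstm1, the autophagy receptor, reached 353.4. Closer to a gene start, a region 1839 bp upstream of Ces2a, a carboxylesterase, reached 363.4, and Paqr9, a membrane receptor gene, followed in the 1 to 10 kb class with 328.6 at 7260 bp upstream. A region 818 bp upstream of Fcna, the ficolin A gene, reached 353.0 (317.1 to 391.8) and was the strongest within 1 kb of a TSS. It was followed there by 1700052N19Rik at 290.4 in a 5′ UTR and Repin1, a zinc finger gene, at 281.0.

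Ranked by reads in the region, Arid1b came first with 1180.2 RXRα reads at chr17:4626049-4626688, before Ptgds with 1012.2, Fcna with 689.4, Pan3, a subunit of a poly(A) nuclease, with 677.6, and Ehhadh, a peroxisomal fatty acid oxidation enzyme, with 603.2. The Ehhadh region lay 40563 bp upstream of the gene. Agpat2 (570.8), which makes phosphatidic acid for triglyceride synthesis, Palb2 (528.0), Slc25a47 (526.2), a liver mitochondrial carrier, Prr16 (525.8) and Pim3 (522.4), a protein kinase, completed the 10 regions with most reads. The 2 rankings shared 4 of their first 10 regions and 19 of their first 100.

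Several of the highest regions consisted of tandemly repeated sequence. The sequence 100 bp to either side of the summit was counted as tandem when at least 80% of its letters recurred at 1 fixed period of up to 60 bp. By this measure 67 of all regions (0.159%) were tandem, against 0.272% of flanking windows, but so were 3 of the 10 strongest (Prr16, Arid1b and Fcna) and 6 of the 10 with most reads (those 3, Pan3, Ehhadh and Palb2). Ptgds reached 72% at a period of 15 bp. Among the strongest 100 the number was 3. The part of repeated sequence in these values was not tested.

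Of 22367 protein-coding genes, 7614 (34%, 33.4 to 34.7) were the nearest gene of at least 1 region within 10 kb of their TSS. A single region was found at 3997 of them (52.5%), 2 at 1732, 3 at 911 and 4 or more at 974. The median of the highest bin ratio within 10 kb over all genes was 14.9.

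Bcl6, a transcriptional repressor, Pim3 and Il1r1, an interleukin receptor, had the most regions, 11 each. Osgin1, an oxidative stress response gene, Fgg and Fga, which encode fibrinogen chains, Grhpr, the glyoxylate reductase, Sdc4, a heparan sulfate proteoglycan, and C9, a complement component, had 10 each, and Cpb2, a carboxypeptidase of the fibrinolytic system, was among those with 9. Among these 10 genes the highest ratio was 225.7 at Bcl6 and 207.4 at Cpb2, but 48.1 at Sdc4 and 46.5 at C9. Pim3 collected 1295.2 RXRα reads over its 11 regions, and C9 147.8 over its 10. These 10 genes depended on the counting. When every region within 10 kb counted for a gene, also where another gene was nearer, 5 of the 10 remained, and by regions in the gene body 0 remained and the long locus Gm20388 came first with 235.

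Genes known to be regulated by the metabolic partners of RXRα nearly all had a region within 10 kb. The background for each count is the 34% of all protein-coding genes. A gene can stand in more than 1 list, and each list is described by its count and its median and not tested. The lists and their members were chosen with earlier results of these data known. Hepatocyte genes (24 of 25), general housekeeping genes (12 of 15) and endothelial markers (6 of 10), described further on, also exceeded the background share. The ratio given for a gene with a region is that of its strongest assigned region, whereas medians, and the ratio given for a gene without a region, use the highest bin within 10 kb, whichever gene was nearest.

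**Figure D4:**
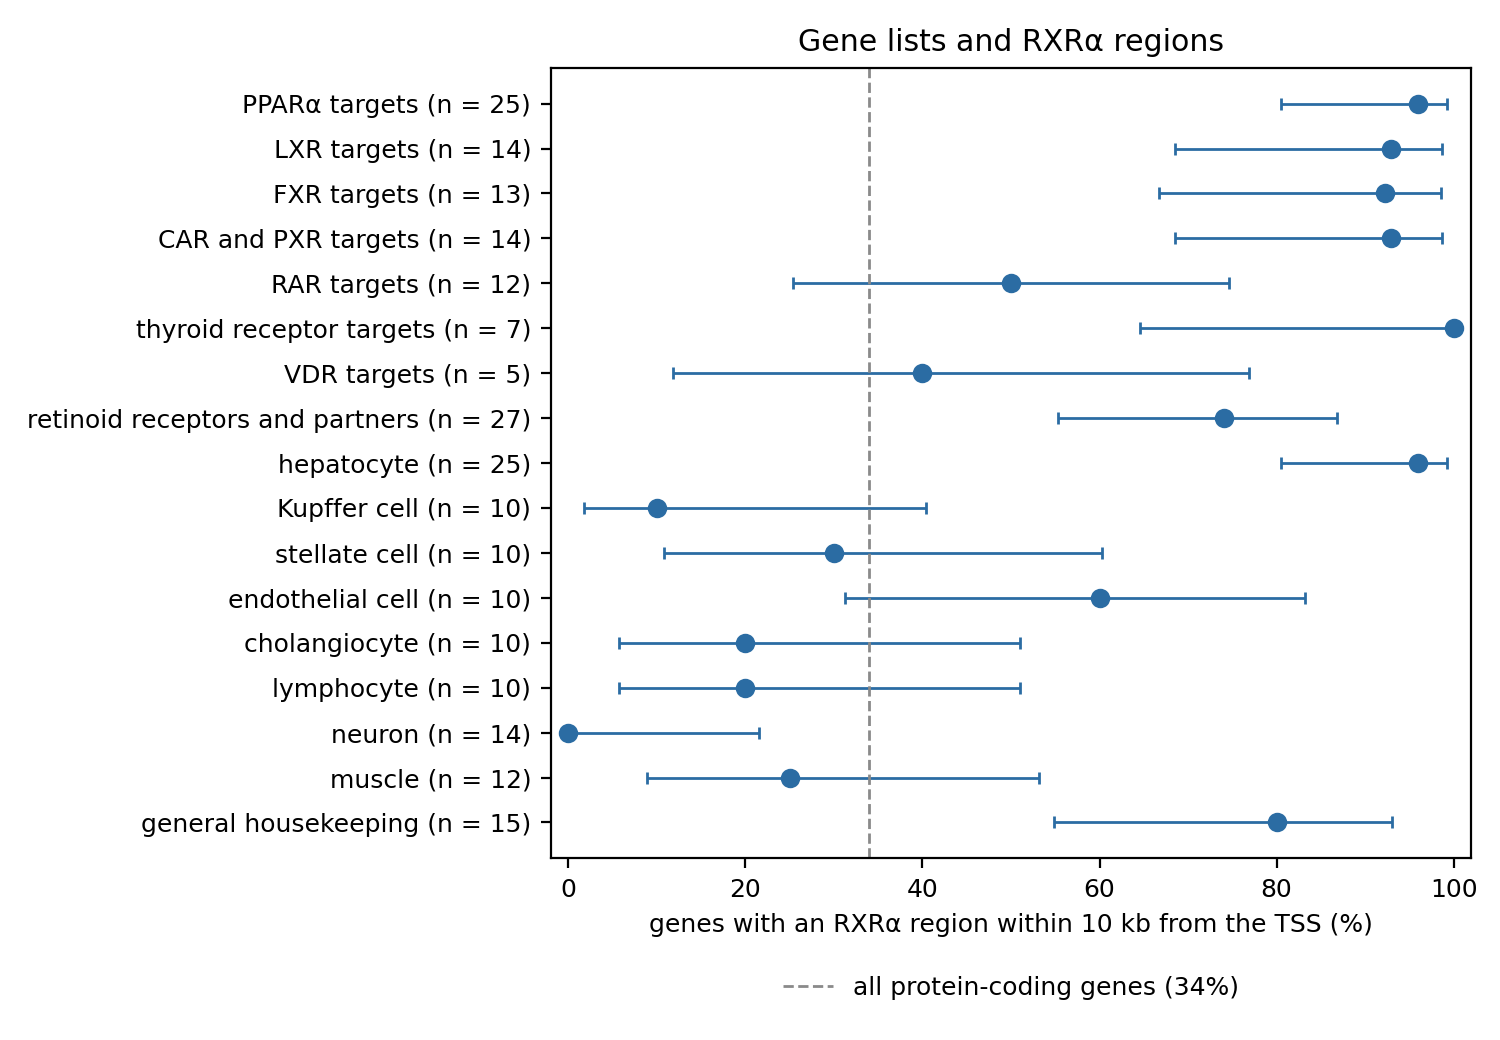
Percent of the genes in each list with an RXRα region assigned to them within 10 kb of the TSS (points) with Wilson 95% intervals (bars), and the 34% of all protein-coding genes (dashed line). The lists of metabolic partner targets and of hepatocyte genes lay above 90%, and none of the 14 neuron genes had a region assigned to it.

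Of the PPARα targets, which serve fatty acid oxidation and ketogenesis, 24 of 25 had a region, with a median highest ratio of 107.9. The highest were Cyp4a10, a fatty acid ω-hydroxylase, at 183.0, and the peroxisomal enzymes Hsd17b4 at 159.3 and Ehhadh at 148.0. The lowest were Hadhb, of the mitochondrial trifunctional protein, at 31 and Slc25a20, the carnitine carrier, at 33, although a region of 84.6 lay within 10 kb of Hadhb and nearer to another gene. Pex11a, a peroxisome division gene, had none assigned to it, but one with a ratio of 71 lay within 10 kb and nearer to another gene.

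Of the LXR targets, which handle cholesterol efflux and lipogenesis, 13 of 14 had a region, with a median of 76. Fasn, the fatty acid synthase, reached 122.8 at 556 bp upstream, and Abcg5, a biliary sterol transporter, 117.8. The region assigned to Abcg8, its partner, had the lowest ratio of the assigned regions, 29, while one with a ratio of 64 lay within 10 kb and nearer to another gene. Lpl, lipoprotein lipase, had no region and a highest ratio of 16.6.

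Of the FXR targets, which control bile acid synthesis and transport, 12 of 13 had a region, with a median of 80. Abcb11, the bile salt export pump, had 1 region at 241 bp upstream with a ratio of 272.1 (232.1 to 317.1), from 164 RXRα reads over 0 input reads in the highest bin. Nr0b2, the repressor SHP, had 6 regions with a highest ratio of 117.8. Slc27a5, a bile acid CoA ligase, had 5 regions and reached 48.1, and the region whose DR1 is printed above, 971 bp upstream, had a ratio of 29.9. The lowest of the genes with a region was Baat, a bile acid conjugating enzyme, at 22.3. Slc51a, the α subunit of a basolateral bile acid exporter, had none and reached 11.6, whereas Slc51b, the β subunit, had a region with a ratio of 78 at 300 bp upstream.

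Of the CAR and PXR targets, the drug metabolism genes, 13 of 14 had a region, with a lower median of 53. Por, the electron donor of microsomal P450 enzymes, reached 170.9, Abcb1a, a drug efflux pump, 81, and Cyp2b10 73. Cyp3a11 had 1 region at 26.5, and Cyp2c29 had none, with a highest ratio of 8.3. All 7 thyroid receptor targets had a region, with a median of 147.7. Thrsp, a lipogenic protein, reached 278.8 in the region whose DR4 is printed above, and Klf9, a transcription factor, reached 253.9 at 5396 bp upstream and had 8 regions, apart from the more distant region printed above. Me1, malic enzyme, was lowest at 29.9.

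The RAR and VDR targets had fewer. Of the RAR targets, 6 of 12 (50%, 25.4 to 74.6) had a region, with a median of 28. Cyp26a1, the retinoic acid hydroxylase, had 4 regions and reached 112.8 at 1834 bp upstream, in the region that holds the DR5 printed above. Tgm2, a transglutaminase, reached 99.6, and Dhrs3, a retinaldehyde reductase, had 8 regions and reached 84.6. Cyp26b1, Rarb, Crabp2, Stra6 and Lrat were among those without a region, with highest ratios from 3.32 at Stra6 to 12 at Cyp26b1. Of the VDR targets 2 of 5 had a region, Cyp24a1 at 25 and Spp1 at 22, both near the threshold.

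Rxra itself had 7 regions, the highest at 56.4 and 5752 bp downstream of the TSS. Together with the other receptors and partners, 20 of 27 genes had a region (74.1%, 55.3 to 86.8), with a median of 41.5. Nr1i2, which encodes PXR, reached 136.0, the clock repressor gene Nr1d2 129.4, and Ppara had 8 regions. Rxrg, Rarb, Pparg, Nr1h2, Vdr, Nr2f1 and Rora had none. Rarb and Vdr had the lowest highest ratio of these, 6.64, and Pparg the highest, 16.6.

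A list of hepatocyte genes was set beside the labelled tissue. It is no test of the label, because the list was chosen with earlier results of these data known. Of the hepatocyte genes, 24 of 25 had a region, with a median of 78. Pck1, of gluconeogenesis, reached 150.0, Fgb, a fibrinogen chain, 144.4 and Serpina1a 137.7. Alb, the albumin gene, had 2 regions with a highest ratio of only 22.4, and Apoh, a plasma apolipoprotein, had none at 17. Of the markers of other liver cells, 1 of 10 for Kupffer cells, 3 of 10 for stellate cells, 6 of 10 for endothelial cells, 2 of 10 for cholangiocytes and 2 of 10 for lymphocytes had a region. Against the 34% of all protein-coding genes, the endothelial share of 60% (31.3 to 83.2) was higher. The other shares, from 10% for Kupffer cells to 30% for stellate cells, were lower. The intervals of all of these marker lists took in 34%.

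Some markers of other cells nevertheless had strong regions. Tie1, an endothelial receptor kinase, reached 119.5, Pdgfrb, a stellate cell growth factor receptor, 109.5 and Csf1r, the macrophage growth factor receptor and the only Kupffer cell marker with an assigned region, 102.9. Cd68, another Kupffer cell marker, had 4 regions within 10 kb that were nearer to other genes, the highest at 44.8. The endothelial marker Stab2 was at 8.3 and the Kupffer cell marker Clec4f at 8.3. In whole liver chromatin, signal in few cells and weak signal in many cannot be told apart. Of the lists from outside the liver, 0 of 14 neuron genes and 3 of 12 muscle genes had a region, while 12 of 15 general housekeeping genes did, with a median of 43.1. When regions nearer to another gene were counted as well, 1 neuron gene, Dlg4, had one within 10 kb, with a ratio of 81.3.

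Hexamers were found under most summits. The letters searched on both strands were AGGTCA and the same hexamer with G at the first place, T at the third or both, in a window of 100 bp to either side of the summit. At least 1 stood under 28143 summits (66.8%, 66.4 to 67.3), against 37.9% of windows 500 bp to either side and 34% of all windows of that length in the genome. When the regions were ranked by ratio, the share was 59.1% (58 to 60.1) among the weakest 8424 regions, 77.5% (76.6 to 78.4) among the strongest 8424 and 88% (80.2 to 93) among the strongest 100. Region width moved with this ranking, from a median of 32 bp to 256 bp.

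Among repeats of the hexamers, DR1 was the most frequent and IR1 the most enriched. DR1 stood under 612 summits (1.45%, 1.34 to 1.57), against 0.214% of flanks and 0.118% of the genome, an excess over flanks of 6.8 times. IR1 stood under 164 (0.389%, 0.334 to 0.454), against 0.0237% of flanks, an excess of 16.4 times. DR0 was second in frequency, under 444 summits (3.23 times flanks), before DR2 under 286 (3.21 times). DR5 stood under 200 summits (6.25 times) and DR4 under 194 (5.54 times). These letters were strict, and 4.83% of regions held any of DR0 to DR5, IR0 or IR1. The repeats overlap in part, as in Myom1, where DR1 and IR1 share a hexamer.

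A looser match gave the same pair. With up to 2 letters differing from paired AGGTCA copies, a definition added after seeing the data, DR1 stood under 5450 summits (12.9%, 12.6 to 13.3) against 3.28% of flanks, the largest difference of the 27 arrangements at 9.66 percentage points. IR1 stood under 4.9% against 1.02%, the largest ratio over flanks at 4.81 times. Over genome windows DR1 had the larger ratio, 5.44 times against 5.1 for IR1. DR0, at 8.88% against 3.47%, was second in frequency. DR4, at 6.86% against 2.39%, exceeded DR3 and DR5 on this scale, at 5.3% and 5.68%. Between the weakest and the strongest 8424 regions, strict DR1 went from 1.09% to 1.84%, DR4 from 0.297% to 0.783% and IR1 from 0.178% to 0.748%.

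**Figure D5:**
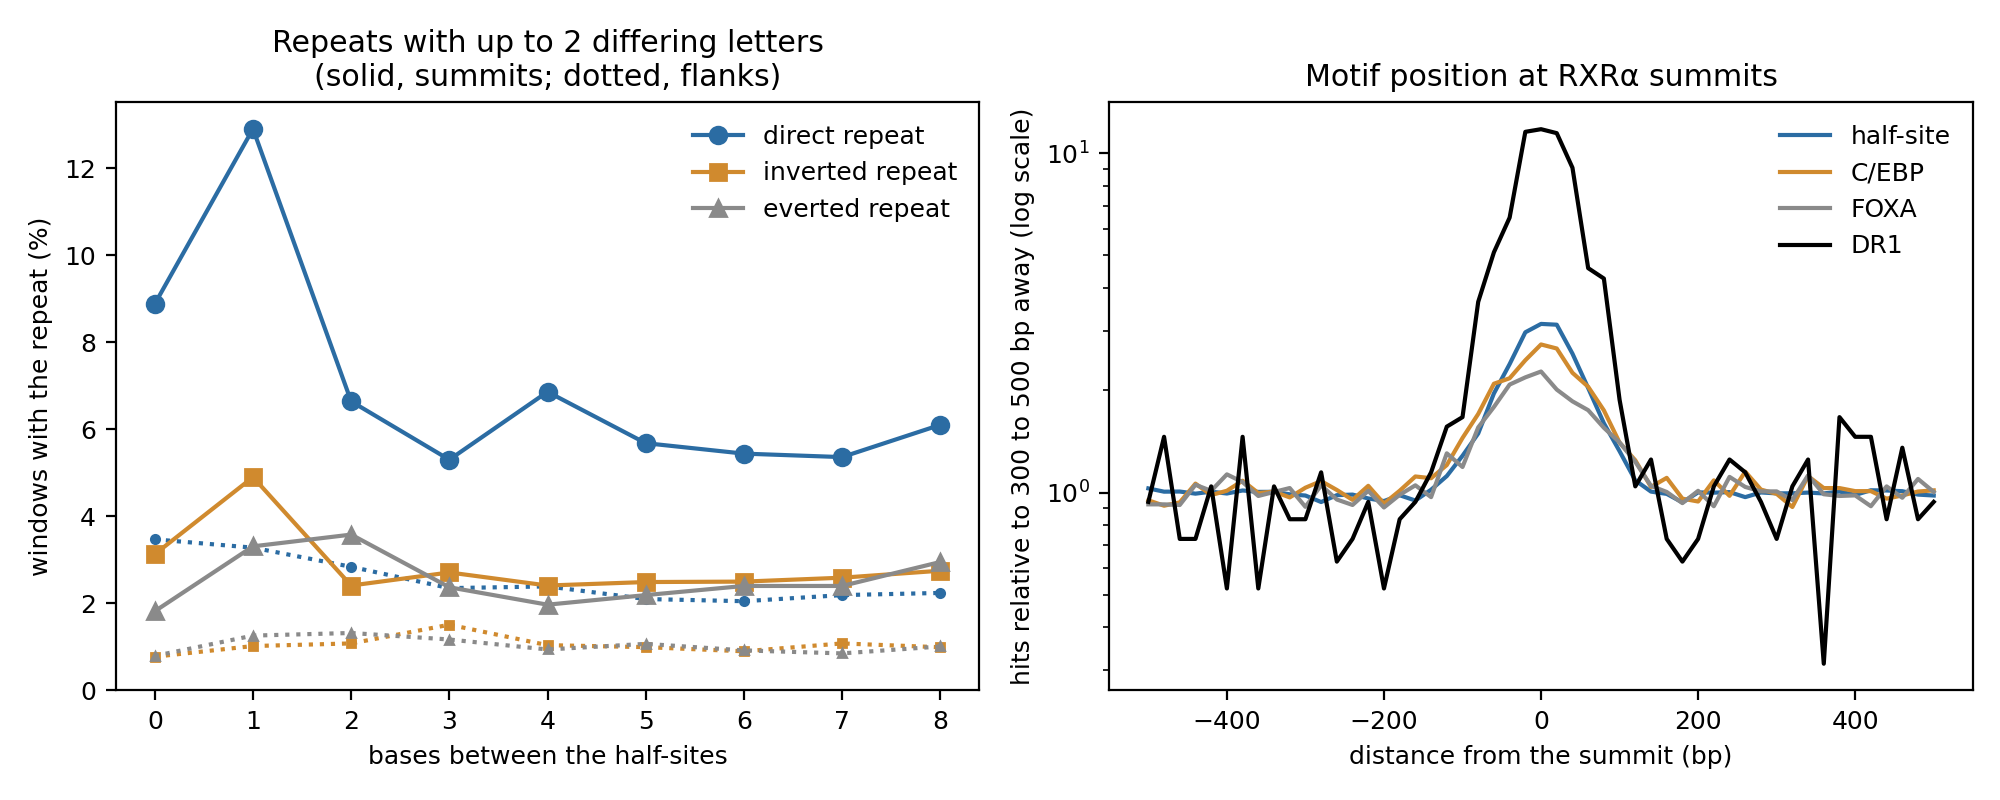
Left, percent of windows of 100 bp to either side that held a direct, inverted or everted hexamer repeat with up to 2 differing letters, by spacer length, at RXRα summits (solid) and 500 bp away (dotted), with direct repeats highest at a spacer of 1 (12.9%). Right, hits per 20 bp by distance from the summit relative to the mean of 300 to 500 bp away, on a log scale, where strict DR1 rose 11.8 times at the summit.

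Hits of DR1 and of the single hexamer were centred on the summits, and the positions of the other repeats were not profiled. In 20 bp steps, strict DR1 was 11.8 times as frequent at the summit as 300 to 500 bp away, the single hexamer 3.14 times, C/EBP letters (TTGCNNAA) 2.73 times and FOXA letters (TGTTTAC, or the same with A at the second place) 2.27 times. FOXA and C/EBP are families of liver transcription factors. Over the whole window, FOXA letters stood under 10.4% of summits against 5.75% of flanks, C/EBP letters under 16.9% against 8.01%, and AP-1 letters (TGANTCA) under 8.03% against 5.84%.

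The sequence of the regions at gene starts was different from that of the rest. Within 1 kb of a TSS, the median window held 11 CpG dinucleotides and 56% held 10 or more, against 0.894% beyond 100 kb. The hexamer stood under 51.2% of summits within 1 kb and under 70% beyond 100 kb. FOXA letters went from 5.42% to 13.7% and C/EBP letters from 8.8% to 23.3%. ETS letters (CCGGAAG), which are common at CpG-rich promoters, went the other way, from 8.9% to 0.543%.

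Within the first class, the windows with 10 or more CpG (2962 regions) and those with fewer (2331) differed as well. The hexamer stood under 41.3% (39.6 to 43.1) of the former and 63.7% (61.8 to 65.7) of the latter, and ETS letters under 13.9% and 2.49%. The median ratio was 29.9 and 33.2. For comparison, among 32851 RefSeq promoter windows of 300 bases (GRCm38.p6), 43.7% held the hexamer, 0.222% a DR1 and 8.86% ETS letters in these windows, which are longer than those at the summits. Base composition moved with these counts, and its part in them was not tested.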

How the data were processed

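The authors deposited, for RXRα and input, a signal file of whole-number coverage in 32 bp bins on mm9, extended to a bandwidth of 140 bp so that each read covers 5 bins. The totals came to 9999939 reads for RXRα and 9999292 for input. The files call the tracks normalised, and how both came to nearly the same total is not given in the sources used here. The RXRα track holds fewer reads than the study mapped for it, so the values may not be raw read counts, and the intervals treat them as reads. The submitters' processing notes name CASAVA 1.4 and Bowtie. The study's methods name MACS for peak calls, a different build for alignment and NCBI37/mm9 for annotation, and mm9 was used as the file headers state. The threshold of 20 times input and the distance of 10 kb follow those methods. RXRα peak calls of the authors were not used here.

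Regions were called as described with Python 3.11.15, numpy 2.4.6, pandas 2.3.3 and scipy 1.17.1, and the code was tested on simulated data. TSS and gene parts came from GENCODE protein-coding genes on NCBI37, with the most upstream start of each gene and the region midpoint. Intervals were Wilson for shares and exact Poisson for counts and ratios, at 95%, and none covers variation between mice or precipitations. Those of ratios cover the RXRα count alone, with the background taken as fixed. No test was made, because each group had 1 library. Named genes were the 10 regions with the highest ratio, the 3 strongest of each distance class, the 10 regions with most reads, the 10 genes with most regions, and up to 6 members of each gene list with the highest or lowest ratio or without a region. Genes named beyond this rule, such as Rxra, Slc51b, Stab2, Clec4f, the further members without a region and those whose sequences are printed, were chosen after their values were seen. Members and gene lists were chosen with earlier results of these data known. Alternatives varied the threshold, background, scaling, joining, minimum bins, TSS set and motif definition.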

Additional observations from a re-analysis of the deposited data

How the results depend on the processing

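The number of regions, of regions within 10 kb of a TSS and of genes depended most on the threshold. At 5 times input the 5 main values (regions, regions within 10 kb, genes, percent within 1 kb, percent of summits with a DR1) were 263277, 73161, 18588, 7.17 and 0.656. At 10 times they were 88014, 32062, 12098, 13.2 and 1.22. At 30 times they were 25746, 8870, 5247, 10.9 and 1.62. The percent within 1 kb was 13.5 at 15 times and 11.6 at 25 times. With the mean input alone as background, 23034 regions lay within 10 kb and 14.4% within 1 kb. With local input over 1 kb added, there were 27045 regions, 8866 within 10 kb, 9.64% within 1 kb and 1.69% with a DR1. The percent within 1 kb was also 12.1 when bins within 500 bp were joined, 11.8 with at least 2 enriched bins and 15.2 with the TSS of every transcript. The DR1 percent was 1.33 when only touching bins were joined, 0.988 in windows of 50 bp to either side, 1.68 in windows of 200 bp to either side, 0.318 with AGGTCA alone and 12.9 with up to 2 differing letters. Of the 13 alternatives for the number of regions, 9 stayed within 1.5 times of 42117, among them no scaling (42779) and means taken without the bins of very high input (44488, added after seeing the data). A higher threshold asks for more reads by construction, and the cause of the other differences was not tested. No paired analysis was possible because each group had 1 library. The least signal that could pass was 13 reads in a bin, so weaker sites were not detectable at this depth. The same floor held on chromosome X, where input reads per Mb were 0.574 of the autosomal level.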

Other observations

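Families of sensory receptor genes, expressed mainly in sensory neurons, had few RXRα regions. Of 1113 olfactory receptor genes (Olfr), 29 had a region within 10 kb (2.61%, Wilson 95% interval 1.82 to 3.72), and of 328 vomeronasal receptor genes (Vmn), 8 (2.44%, 1.24 to 4.74), against 34% of all protein-coding genes. Members of both families lie in clusters and share sequence, so they are not independent of each other. Read coverage over these genes was not examined, and the cause of their low shares was not tested.

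Most of the bins with the highest RXRα signal lay outside the regions. Of the 1000 bins with the highest RXRα signal, each with at least 256 reads, 128 lay in a region. The other 872 bins had a median input of 1696.0, and 282 of them lay on the mitochondrial chromosome. They fell in 15 of the fixed windows of equal length into which the chromosomes were cut, and adjoining windows can share a locus. On the mitochondrial chromosome lay 3.64% of input reads against 0.261% of RXRα reads, and 0 regions.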
